A study of Homo sapiens with 9 samples.

Results

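The genes described here are 10 members of the IL6 cytokine family and its signalling pathway, followed in the human fetal lung fibroblast line IMR90. They are the ligands IL6, LIF, IL11 and CLCF1, the receptor chains IL6ST, IL6R, LIFR and OSMR, the transcription factor STAT3 and the feedback inhibitor SOCS3. They were chosen by symbol as a pathway list, with earlier results of these data known, out of 64253 genes counted. All 10 were among the 16561 genes with enough reads to test. RNA sequencing covered 9 libraries, 3 in each of 3 groups, with replicates a, b and c. Control cells received pLKO.1 lentivirus without a gene-targeting hairpin, which the sample labels call empty vector and the treatment protocol calls GFP vector. In the shRRM2 group a hairpin lowers RRM2, a subunit of the ribonucleotide reductase that makes dNTPs, and senescence after dNTP depletion is the label's name for this state. The shRRM2/shp16 cells received in addition a hairpin against p16, a brake on the cell cycle and product of the CDKN2A gene, and are labelled a bypass of that senescence. All groups were infected with lentivirus in 2 rounds 24 hours apart, grown at 2% oxygen at population doubling 30, and selected with 3 ug/mL puromycin for 7 days. Each target was addressed with 1 hairpin, and no group carried the p16 hairpin alone. Nothing in the labels says that replicates came from separate cultures, so the p-values may cover only the spread between preparations.

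The ligands IL6, LIF, IL11 and CLCF1 all signal through gp130, the receptor chain encoded by IL6ST. IL6 reaches it through IL6R, IL11 through IL11RA, LIF through LIFR, and oncostatin M through OSMR or LIFR, while CLCF1 uses CNTFR, LIFR and gp130. The receptors activate JAK kinases, which phosphorylate STAT3, and STAT3 switches on its target genes, among them SOCS3, whose protein binds gp130 and stops the kinases. In fibroblasts IL6 is a well known part of the mix of factors that senescent cells secrete. None of these measurements is of protein, secretion or phosphorylation.

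The sequences upstream of IL6 and IL11 are shown because these ligand genes had different patterns across the groups and a RefSeq promoter entry (GRCh38.p14), and because their windows hold different motifs. LIF and CLCF1 had no entry, and 8 of the 10 members had one. Capitals mark letters found by a search for the motifs described after the sequences. The IL6 stretch is chr7:22726950-22727146 on the plus strand, cut before the first IL6 exon in the window and inside an intron of a longer annotated IL6 transcript, and the IL11 stretch is chr19:55370464-55370713 on the minus strand, outside annotated exons.
IL6: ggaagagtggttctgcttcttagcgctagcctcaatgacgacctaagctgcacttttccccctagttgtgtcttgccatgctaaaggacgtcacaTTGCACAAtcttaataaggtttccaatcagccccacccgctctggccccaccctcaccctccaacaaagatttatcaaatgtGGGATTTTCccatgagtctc
IL11: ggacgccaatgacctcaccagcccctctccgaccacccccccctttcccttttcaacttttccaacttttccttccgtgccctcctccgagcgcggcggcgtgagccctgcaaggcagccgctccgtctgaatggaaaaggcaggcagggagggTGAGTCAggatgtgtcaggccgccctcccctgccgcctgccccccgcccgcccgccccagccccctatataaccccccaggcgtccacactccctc

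The search covered both strands of the 250 bases before each RefSeq start, in 11 windows of the members and 35116 windows in all. The NF-kB letters GGGANTTTC lie at -73 to -65 before the IL6 start and are present in 1.12% of all windows. The C/EBP letters TTGCNNAA lie at -155 to -148 before IL6 and are present in 9.05%. The AP-1 letters TGANTCA lie at -96 to -90 before IL11 and are present in 6.57%. In the searched windows of the members, the STAT letters TTCNNNGAA were found only before LIFR, and are present in 6.57% of all windows. The CRE letters TGACGTCA, present in 1.65%, were found in no member's window. LIFR and OSMR windows also held the C/EBP letters. The SOCS3 windows, at 78359668 to 78359917 and 78360926 to 78361175, leave out the bases just before the annotated SOCS3 start at 78360077. Motifs in those bases were not searched. A match of letters is a description and not a measured binding site. Near matches were not counted, so a motif that was not found does not show that a site is absent.

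The libraries held 15770895 to 24873291 gene-assigned reads. RRM2 was counted at 485 CPM (counts scaled to library size) in control, 62.1 in shRRM2 and 177 in shRRM2/shp16, so the doubly targeted cells held 36.5% of the control level against 12.8% in shRRM2. CDKN2A was at 6.02, 6.50 and 4.28 CPM, which is 108% of control in shRRM2 and 71.1% in shRRM2/shp16. This is a count over the whole gene at a low level, and p16 itself was not measured. RRM2 RNA thus differed between the hairpin groups along with CDKN2A RNA, and its part in the results was not tested. The 7 fibroblast markers were all above 1 CPM in every group, with a summed level of 20014 to 23404 CPM. COL1A1 was the largest part of it, at 12707, 13452 and 9330 CPM. Single markers moved both ways: from control to shRRM2/shp16, THY1 went from 337 to 161 CPM and COL3A1 from 1722 to 3631. Epithelial markers summed to 23.9 to 25.2 CPM in control, 12.0 to 13.4 in shRRM2 and 3.29 to 5.21 in shRRM2/shp16, with 2 of 5 markers at 0 in each group. CLDN4 gave 22.9, 10.7 and 2.37 CPM of this, while EPCAM was at 1.07 to 1.27 CPM. Endothelial markers summed to 65.3 to 70.5, 67.8 to 73.0 and 115 to 124 CPM, nearly all from TEK, while CDH5 had 0 to 1 read per library. Leukocyte markers summed to 1.80 to 3.62 CPM over all libraries, and PTPRC had 0 to 2 reads. Of unique reads, 17.6% to 18.9% in control, 27.7% to 28.8% in shRRM2 and 23.5% to 24.4% in shRRM2/shp16 were assigned to no feature. The feature type counted is not given, so such reads may lie in introns as well as between genes. The part of this share in the results was not tested.

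Most of the family's RNA change was in the ligands and in SOCS3, while the receptors and STAT3 moved by at most 1.40-fold. In shRRM2 against control, IL6 rose 4.60-fold, LIF 1.48-fold, and SOCS3 fell 1.92-fold. In shRRM2/shp16 against shRRM2, IL6 rose a further 8.22-fold, SOCS3 6.03-fold, LIF 3.58-fold and IL11 3.36-fold. In bulk RNA, fewer cells with a transcript and less transcript per cell cannot be told apart. These comparisons were tested with edgeR's quasi-likelihood test over all 16561 genes, with Benjamini-Hochberg adjustment and a threshold of 0.05, and they share libraries.

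**Figure D1:**
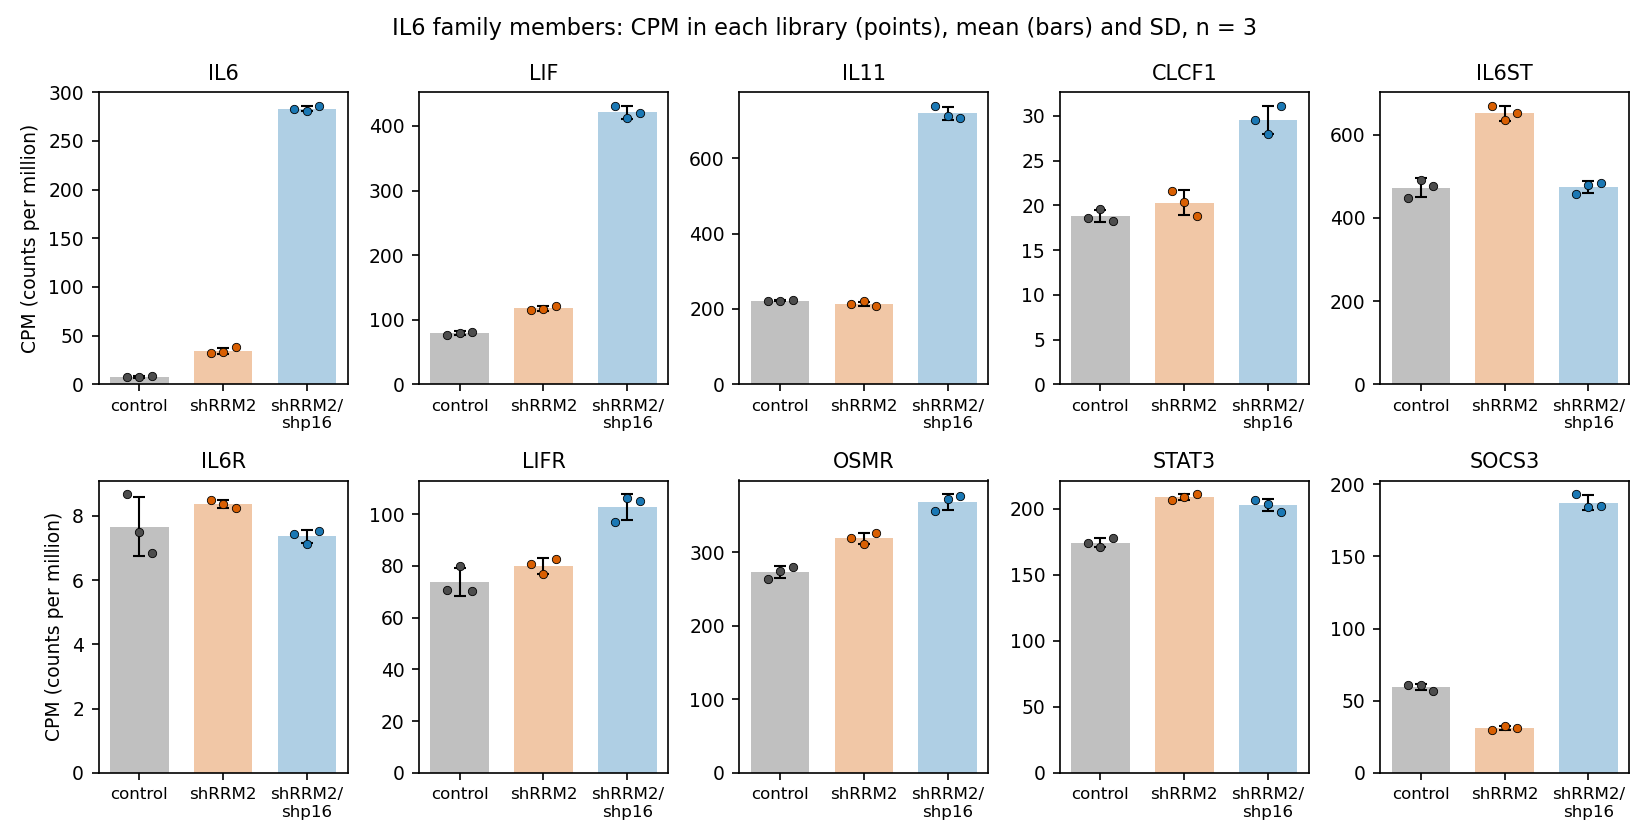
CPM (vertical axes, from 0, each with its own scale) of the 10 members in control, shRRM2 and shRRM2/shp16; points are libraries a to c, bars are means and error bars are SD, n = 3. IL6, LIF, IL11 and SOCS3 stand far higher in the 3 shRRM2/shp16 libraries (IL6 at 281 to 286 CPM) than in the other 6, while IL6ST is highest in shRRM2 and SOCS3 lowest there.

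In shRRM2 against control, 7 of the 10 members passed the test, where 60.9% of all genes did. Of these, 6 were higher, against 29.0% of all genes, and 1 was lower, against 31.8%. IL6 alone was at least 2-fold higher, against 6.81% of all genes. In shRRM2/shp16 against shRRM2, 8 members passed (61.1% of all genes), of which 7 were higher (31.9%) and 1 lower (29.1%). Here 4 members were at least 2-fold higher, against 5.19% of all genes. In shRRM2/shp16 against control, 8 passed (62.4%), all of them higher (30.0%) and 0 lower (32.4%), and 4 were at least 2-fold higher (6.59%). The count of members called was thus near that of all genes, while the members' share of large increases in shRRM2/shp16 was above it. This list was chosen with earlier results of these data known, so that excess is a description and not a test. The median log2 fold change of the members was 0.17, 0.45 and 0.57 in these comparisons, against 0.00, 0.01 and 0.01 over all genes. The median size of change, whatever its direction, was 0.24, 0.50 and 0.57, against 0.32, 0.32 and 0.34.

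**Figure D2:**
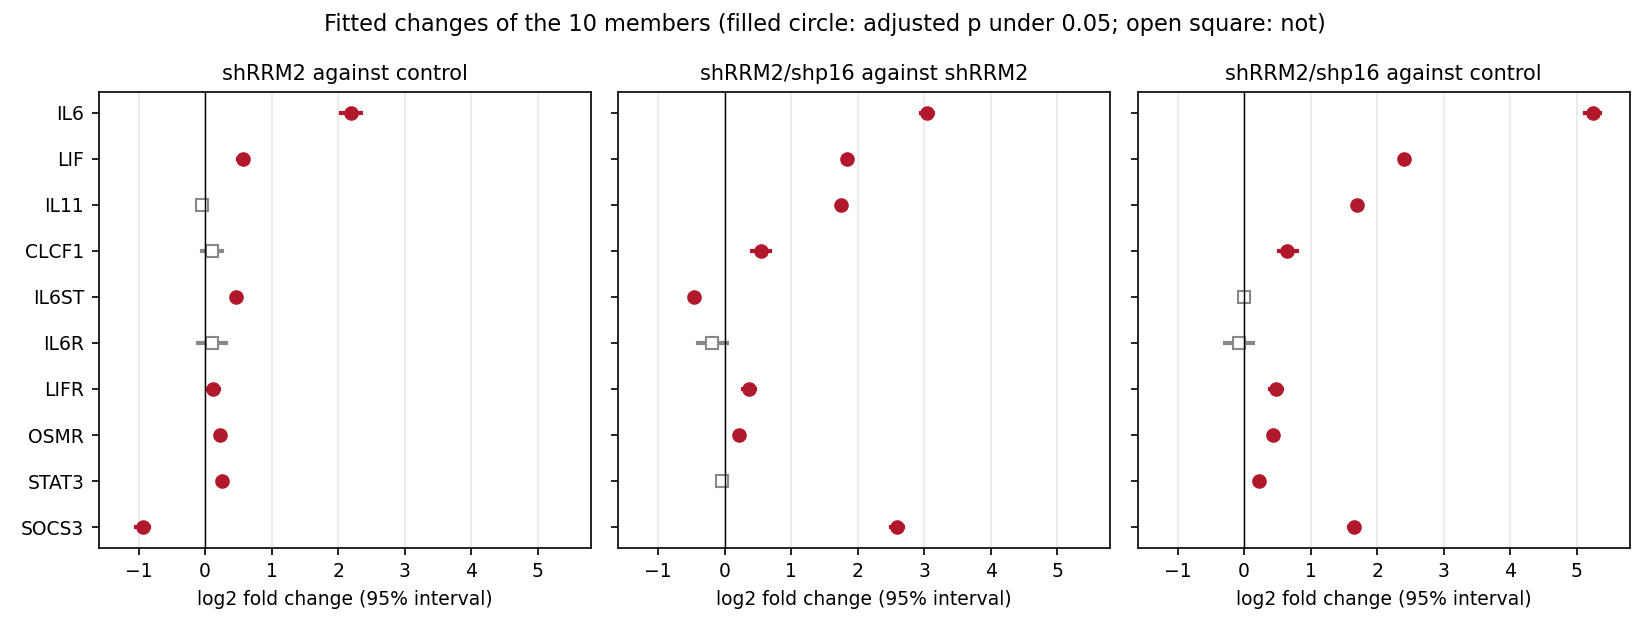
Fitted log2 fold change (horizontal axis) with its 95% interval for each member in the 3 comparisons; filled circles passed an edgeR adjusted p of 0.05 and open squares did not. IL6 lies farthest to the right in each panel, at 2.20, 3.04 and 5.24, and SOCS3 is at -0.94 in the first panel and 2.59 in the second.

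IL6 encodes the founding ligand of the family (ENSG00000136244; GRCh38 chromosome 7, 22725884 to 22732002, plus strand). Its level was 7.04, 7.21 and 8.40 CPM in control libraries a to c, 32.4, 33.1 and 37.8 in shRRM2, and 283, 281 and 286 in shRRM2/shp16. The groups were fully separated, and the lowest shRRM2/shp16 library was above the highest shRRM2 library by a wide margin. The log2 fold change was 2.20 ± 0.07 (SE) in shRRM2 against control (edgeR adjusted p 1.4e-27). It was 3.04 ± 0.04 between the hairpin groups (adjusted p 1.0e-41) and 5.24 ± 0.06 over both steps (adjusted p 4.5e-47), which is 37.8-fold. Ranked by size, this last change was the 19th of all 16561 genes. Control libraries held only 129 to 168 IL6 reads each, against 5325 to 5648 in shRRM2/shp16.

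IL6 overlaps exons of STEAP1B and AC073072.1 on the opposite strand. STEAP1B had 105 to 143 reads in control, 68 to 96 in shRRM2 and 32 to 35 in shRRM2/shp16, so it was lowest where IL6 was highest. AC073072.1 had 8 to 24 reads in any library. The strand setting of the read counting is not given in the sources used here.

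LIF, a ligand that acts through LIFR and gp130, lies on chromosome 22 (ENSG00000128342; 30240447 to 30246851, minus strand). Its level was 76.7, 80.0 and 81.3 CPM in control, 115, 116 and 121 in shRRM2, and 431, 412 and 420 in shRRM2/shp16. No library of one group reached the range of another. The log2 fold change was 0.57 ± 0.04 in shRRM2 against control (edgeR adjusted p 1.4e-17) and 1.84 ± 0.03 between the hairpin groups (adjusted p 1.4e-38). The antisense gene LIF-AS1 had 0 to 5 reads per library, and AC004264.1, also on the opposite strand, 5 to 22.

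IL11, a ligand with a known profibrotic action in fibroblasts, had another pattern (ENSG00000095752; chromosome 19, 55364389 to 55370463, minus strand). Its level was 220, 221 and 223 CPM in control, 213, 220 and 209 in shRRM2, and 739, 712 and 708 in shRRM2/shp16. Control and shRRM2 libraries overlapped, and only the doubly targeted group stood apart. The log2 fold change in shRRM2 against control was -0.05, with a 95% interval of -0.11 to 0.01 and an edgeR adjusted p of 0.165, so a change as large as that of LIF lies outside the interval. Without the low-count filter this difference was -0.09 with an adjusted p of 0.0172. Between the hairpin groups IL11 rose by 1.75 ± 0.03 (adjusted p 1.3e-39).

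CLCF1, a ligand that acts through CNTFR, LIFR and gp130, had the lowest level per length of the 4 ligands with both hairpins (ENSG00000175505; chromosome 11, 67364168 to 67374177, minus strand). Its level was 18.6, 19.6 and 18.2 CPM in control, 21.6, 20.4 and 18.8 in shRRM2, and 29.5, 28.0 and 31.1 in shRRM2/shp16. The first 2 groups overlapped and the third was above both. The log2 fold change was 0.11 in shRRM2 (95% interval -0.04 to 0.25, edgeR adjusted p 0.192), and 0.54 ± 0.07 between the hairpin groups (adjusted p 2.0e-09). The deposited RPKM values are reads scaled by gene length and library size. With limma on them the first difference was 0.16 to 0.19 and passed the test, with adjusted p of 0.013 to 0.0281.

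RPKM levels here use the gene lengths implied by the deposited RPKM values, such as 2069 bases for IL6. To give lengths in bases, the deposited values were first taken off the log scale and multiplied by 1 constant, the same for all genes and libraries. These lengths need not be those of the transcripts present, and comparisons between genes depend on them. Per such length, the 4 ligand genes together were at 116 ± 1.43 RPKM in control and 137 ± 1.24 in shRRM2 (mean ± SD, n = 3). In shRRM2/shp16 their sum was 527 ± 8.45. IL11 made up 71.4% ± 0.430 of this sum in control, 58.6% ± 1.22 in shRRM2 and 51.1% ± 0.523 in shRRM2/shp16. The share of IL6 was 3.14% ± 0.277, 12.2% ± 1.05 and 26.0% ± 0.465. IL11 thus had the most RNA of the 4 in every group, while IL6 went from the smallest share to the second. LIF kept a share of 17.2% to 21.7%, and CLCF1 went from 8.20% to 7.52% and 2.84%.

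**Figure D3:**
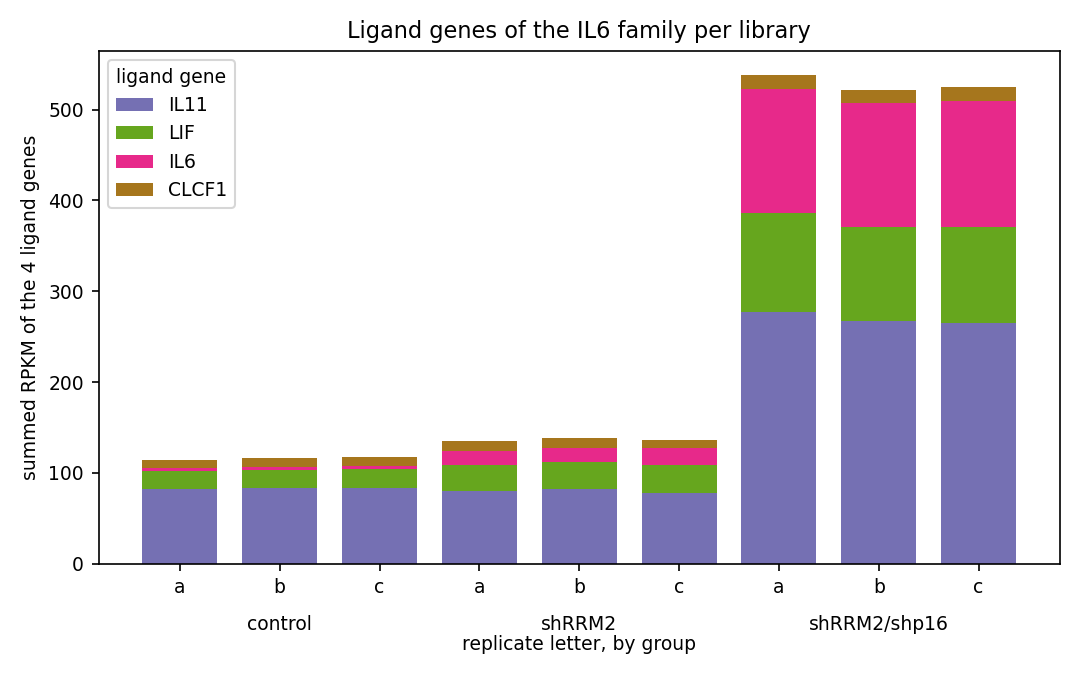
Summed RPKM (vertical axis) of IL11, LIF, IL6 and CLCF1, stacked, in each library, with replicates a to c grouped by condition. The stack is near 116 in control, 137 in shRRM2 and 527 in shRRM2/shp16, and the IL6 layer is nearly invisible in control and 26.0% of the stack in shRRM2/shp16.

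Of the receptor chains, IL6ST rose with RRM2 knockdown and was back at the control level with both hairpins (ENSG00000134352, chromosome 5, 55935095 to 55994993, minus strand). It encodes gp130, the chain that all 4 member ligands share. Its level was 448, 492 and 477 CPM in control, 669, 634 and 651 in shRRM2, and 457, 480 and 484 in shRRM2/shp16. All shRRM2 libraries were above all others, and the control and shRRM2/shp16 libraries overlapped. The log2 fold change was 0.46 ± 0.03 in shRRM2 against control and -0.46 ± 0.03 between the hairpin groups (edgeR adjusted p 1.6e-17 for each). Between shRRM2/shp16 and control it was 0.00, with a 95% interval of -0.06 to 0.07. The IL6ST transcript therefore fell in the comparison in which all 4 ligand transcripts rose.

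IL6R, the chain that binds IL6 itself, had few reads in every library (ENSG00000160712; chromosome 1, 154405193 to 154469450, plus strand). It was at 8.67, 7.49 and 6.85 CPM in control, 8.51, 8.36 and 8.26 in shRRM2, and 7.45, 7.12 and 7.52 in shRRM2/shp16. This rests on 115 to 207 reads in each library. It passed the edgeR test in no comparison, with adjusted p of 0.382, 0.134 and 0.55. The shRRM2/shp16 libraries were all below the shRRM2 libraries, but the log2 difference of -0.19 had a 95% interval of -0.40 to 0.03.

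OSMR, the receptor chain for oncostatin M, rose at each step (ENSG00000145623; chromosome 5, 38845858 to 38945596, plus strand). It was at 264, 274 and 280 CPM in control, 319, 311 and 326 in shRRM2, and 356, 372 and 376 in shRRM2/shp16, with no overlap between groups. The log2 fold changes were 0.23 ± 0.03 (edgeR adjusted p 1.6e-08) and 0.21 ± 0.03 (adjusted p 5.8e-08). Exons of RICTOR lie on the opposite strand of OSMR, and RICTOR reads were also highest in shRRM2/shp16, at 2024 to 2270 against 1059 to 1349 in control; how far they enter the OSMR count was not tested.

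LIFR, the chain for LIF, lies near OSMR on the same chromosome (ENSG00000113594; 38474963 to 38608354, minus strand). It was at 70.7, 79.9 and 70.4 CPM in control, 80.7, 76.7 and 82.6 in shRRM2, and 97.1, 106 and 105 in shRRM2/shp16. Control and shRRM2 overlapped, and shRRM2/shp16 was above both. The rise of 0.36 ± 0.04 between the hairpin groups passed the edgeR test with an adjusted p of 2.4e-09. That of 0.12 ± 0.05 in shRRM2 against control passed narrowly, with an adjusted p of 0.0237. This call was lost without control replicate a (adjusted p 0.117) or c (0.168), without shRRM2 replicate a (0.0524) or c (0.0895), without the low-count filter (0.177) and with limma on RPKM values (0.0511 to 0.134).

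STAT3, the transcription factor on which the family's signal converges, rose modestly with RRM2 knockdown and did not pass the test between the hairpin groups (ENSG00000168610; chromosome 17, 42313324 to 42388568, minus strand). Its level was 174, 171 and 178 CPM in control, 207, 209 and 211 in shRRM2, and 207, 204 and 198 in shRRM2/shp16. Control libraries were below all others. The log2 fold change was 0.26 ± 0.03 in shRRM2 (edgeR adjusted p 1.3e-09). Between the hairpin groups it was -0.04 (95% interval -0.10 to 0.02, adjusted p 0.268).

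SOCS3, the inhibitor that STAT3 itself induces, went in opposite directions in the 2 steps (ENSG00000184557; chromosome 17, 78356778 to 78360077, minus strand). Its level was 60.7, 60.9 and 56.7 CPM in control, 29.8, 32.1 and 31.1 in shRRM2, and 193, 184 and 185 in shRRM2/shp16. The shRRM2 libraries were lowest and the shRRM2/shp16 libraries highest, with no overlap. It fell by 0.94 on the log2 scale in shRRM2 (SE 0.05, edgeR adjusted p 1.3e-20), the only member that was lower there, while IL6 and LIF rose. With limma on RPKM values this fall was as small as -0.62 and still passed the test. Most of those fits use the RPKM column of shRRM2 replicate c, in which only 5.66% of genes match the counts. On the counts SOCS3 then rose by 2.59 ± 0.04 (edgeR adjusted p 3.3e-39), to 3.14-fold the control level. Per length, the ratio of SOCS3 to STAT3 was 1.10 ± 0.0652 in control, 0.478 ± 0.0149 in shRRM2 and 2.97 ± 0.0586 in shRRM2/shp16 (mean ± SD, n = 3). No annotated gene overlaps IL11, STAT3 or SOCS3.

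The order of the members by mean RPKM, a level per length, also changed. In control it was IL11 (82.8), IL6ST (50.8), OSMR (38.0), SOCS3 (21.7), LIF (20.0), STAT3 (19.8), CLCF1 (9.51), LIFR (6.21), IL6 (3.65) and IL6R (1.19). Of these neighbours, only LIF and STAT3 overlapped between libraries. In shRRM2, IL6 stood sixth at 16.6, and SOCS3 at 11.3 had dropped to the range of CLCF1 at 10.3. In shRRM2/shp16 the order was led by IL11 (269), IL6 (137), LIF (106) and SOCS3 (68.5), all above the receptor chains OSMR (51.3) and IL6ST (51.0), which overlapped. IL6R was last in each group, and the ratio of IL6 to IL6R was 3.12 ± 0.654, 12.8 ± 1.27 and 120 ± 2.70.

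The authors' deposited table gives its own comparison of shRRM2/shp16 with shRRM2. The authors' deposited table lists log2 fold changes of 2.97 for IL6, 2.64 for SOCS3, 1.88 for LIF and 1.72 for IL11, each marked significant with a q-value of 4.4e-04, the smallest that table holds. In the authors' deposited table CLCF1 (0.56, q-value 0.0565), LIFR (0.34, q-value 0.0583) and IL6ST (-0.37, q-value 0.563) were not marked, although they passed the edgeR test on the counts. OSMR is listed at -0.01 (q-value 0.977) in the authors' deposited table, against 0.21 ± 0.03 from the counts.

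A list of 56 other genes of the pathway was read in the same fit, and 49 had enough reads to test. In shRRM2 against control, 16 were higher and 14 lower, and the median log2 fold change was 0.07, against 29.0% and 31.8% of all genes tested (median 0.00). Between the hairpin groups, 29 were higher in shRRM2/shp16 and 11 lower (median 0.30), against 31.9% and 29.1% of all genes (median 0.01). Relative to control the doubly targeted cells had 25 of these genes higher and 8 lower (median 0.18), against 30.0% and 32.4% (median 0.01). The counts of the smaller lists that follow are read against these same shares. All these lists were chosen with earlier results of these data known.

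Several other ligands and receptor chains had few or no reads in these cells. Oncostatin M (OSM) had 0 to 1 read in any library, and IL27 and IL31 had 0. CNTFR, the receptor chain used by CLCF1, had 0 to 3 reads. IL11RA, the specific receptor of IL11, was at 6.92 ± 0.250, 6.95 ± 0.522 and 5.16 ± 0.157 CPM (mean ± SD, n = 3) and fell between the hairpin groups (log2 fold change -0.43 ± 0.12, edgeR adjusted p 0.00163). ADAM17, a protease that can shed IL6R from the cell surface, rose by 0.26 ± 0.05 and 0.41 ± 0.05 in the 2 steps (adjusted p 4.6e-05 and 2.2e-09). ADAM10, the other listed protease, was at 227 ± 7.73, 312 ± 8.40 and 270 ± 10.9 CPM: it rose by 0.46 ± 0.03 in shRRM2 (edgeR adjusted p 1.3e-16) and fell by 0.21 between the hairpin groups (adjusted p 2.3e-07).

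Of the 12 kinases, adaptors and other STATs, 3 were higher and 3 lower in shRRM2, near the 29.0% and 31.8% of all genes. Between the hairpin groups 9 were higher and 3 lower, against 31.9% and 29.1%. JAK1, the main kinase bound to gp130, rose by 0.19 ± 0.03 in the latter (edgeR adjusted p 3.1e-07). STAT5A showed the largest change of the list, from 4.11 ± 0.413 CPM in shRRM2 to 13.5 ± 1.80 (log2 fold change 1.72 ± 0.12, adjusted p 4.5e-16), against 5.43 ± 0.907 in control. Its fall in shRRM2 (-0.41, adjusted p 0.0139) was lost without control replicate a (adjusted p 0.126) or shRRM2 replicate a (0.0645), and in all 4 limma fits on RPKM values, where it was -0.15 to -0.05 (adjusted p 0.222 to 0.76). The rise of STAT5A between the hairpin groups was as low as 0.89 in those fits.

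Of 8 inhibitors beyond SOCS3, 7 were tested, with 1 higher and 4 lower in shRRM2 (29.0% and 31.8% of all genes). Between the hairpin groups 3 were higher and 2 lower, near the 31.9% and 29.1% of all genes. SOCS1, which binds JAK kinases directly, fell from 16.8 ± 1.18 CPM in control to 5.51 to 8.36 in the shRRM2 libraries (log2 fold change -1.23 ± 0.11, edgeR adjusted p 1.1e-13, and -0.71 at its smallest with limma on RPKM values). Unlike SOCS3 it was still below control in shRRM2/shp16, at 8.84 ± 0.820 CPM (-0.93 ± 0.10, adjusted p 3.0e-11). Its difference of 0.30 between the hairpin groups (adjusted p 0.0279) was lost with DESeq2 (adjusted p 0.0713), without shRRM2 replicate c (0.353) and without shRRM2/shp16 replicate a (0.145), and was -0.04 with limma on all 9 RPKM columns and 0.17 (adjusted p 0.0804) on the 8 that match the counts. CISH, a family member induced by STAT5, was at 3.99 ± 0.364, 2.52 ± 0.789 and 6.52 ± 0.183 CPM. It rose by 1.38 ± 0.16 between the hairpin groups (adjusted p 4.5e-10), or 0.59 at its smallest with limma on RPKM values, and its fall in shRRM2 (-0.68, adjusted p 8.5e-04) was lost with limma on all 9 RPKM columns (0.126 to 0.133).

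Of 16 genes listed as STAT3 targets, 14 were tested, and many have other known inducers. In shRRM2, 6 were higher and 5 lower (median log2 fold change 0.12), against 29.0% and 31.8% of all genes (median 0.00). Between the hairpin groups 11 were higher in shRRM2/shp16 and 2 lower (median 0.70), against 31.9% and 29.1% of all genes (median 0.01). Relative to control 10 were higher and 1 lower (median 0.61), against 30.0% and 32.4% (median 0.01). CCL2, a chemokine that draws monocytes, rose from 23.2 ± 0.528 CPM in control to 37.9 ± 2.53 in shRRM2 and 251 ± 8.05 in shRRM2/shp16, with log2 fold changes of 0.72 ± 0.06 and 2.72 ± 0.04 (edgeR adjusted p 1.3e-14 and 1.6e-40). CEBPB, a transcription factor of the acute phase response, was at 84.2 ± 2.39, 97.3 ± 5.27 and 321 ± 4.55 CPM, and rose by 1.72 ± 0.04 between the hairpin groups (adjusted p 4.4e-36). Its relative CEBPD rose by 1.13 ± 0.05 there (adjusted p 7.0e-23).

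Some targets followed the dip and rise of SOCS3. PIM1, a survival kinase, was at 17.4 ± 0.529, 8.62 ± 1.05 and 16.2 ± 1.65 CPM, and the immediate early gene FOS at 7.70 ± 0.456, 3.63 ± 0.266 and 11.6 ± 0.708. Their log2 fold changes in shRRM2 were -1.01 ± 0.09 and -1.08 ± 0.13, and both rose between the hairpin groups, by 0.91 ± 0.09 and 1.68 ± 0.12. With limma on RPKM values these changes kept their direction and passed the test, but were as small as -0.59 for PIM1 and -0.51 for FOS in shRRM2, and 0.59 and 1.03 between the hairpin groups. Most of those fits use the RPKM column of shRRM2 replicate c, which does not match its counts. BCL3, a partner of NF-kB proteins, fell by 0.50 and then rose by 0.68 on the log2 scale. NNMT, a nicotinamide methyltransferase, went the other way, at 11.4 ± 1.04, 26.4 ± 1.77 and 7.41 ± 0.585 CPM. IL4R rose by 0.32 and 0.94 and TIMP1, an inhibitor of matrix proteases, by 0.41 and 0.63 in the 2 steps. SERPINA3, an acute phase gene, had 0 to 1 read per library.

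Of 7 regulators of IL6 transcription or mRNA, 4 were higher and 2 lower between the hairpin groups (31.9% and 29.1% of all genes). The 2 lower were ZFP36 (log2 fold change -0.22, edgeR adjusted p 5.5e-04) and ARID5A (-0.26, adjusted p 0.0347). In shRRM2 against control 3 of the 7 regulators were higher and 2 lower (29.0% and 31.8%). RELA, the transactivating NF-kB subunit, was at 116 ± 2.76, 113 ± 2.61 and 114 ± 3.07 CPM and passed the edgeR test in no comparison. NFKBIA, an NF-kB inhibitor that NF-kB induces, was at 30.3 ± 0.591, 26.8 ± 2.36 and 123 ± 4.33 CPM and rose by 2.19 ± 0.05 between the hairpin groups (adjusted p 3.3e-34). Its small fall in shRRM2 (-0.18, adjusted p 0.0113) was lost without shRRM2 replicate b (adjusted p 0.145) and with limma on all 9 RPKM columns (0.809 to 0.819). ZC3H12A, an RNase that degrades IL6 mRNA, rose from 8.12 to 9.70 CPM in the shRRM2 libraries to 45.0 ± 1.40 CPM (2.32 ± 0.07, adjusted p 8.3e-29). NFKBIZ, a coactivator of IL6, rose by 0.78 ± 0.04 and 0.86 ± 0.04 in the 2 steps. NFKB1 rose by 0.79 between the hairpin groups. Its difference of 0.12 in shRRM2 against control passed narrowly (edgeR adjusted p 0.043), and the libraries of those groups overlapped.

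**Figure D4:**
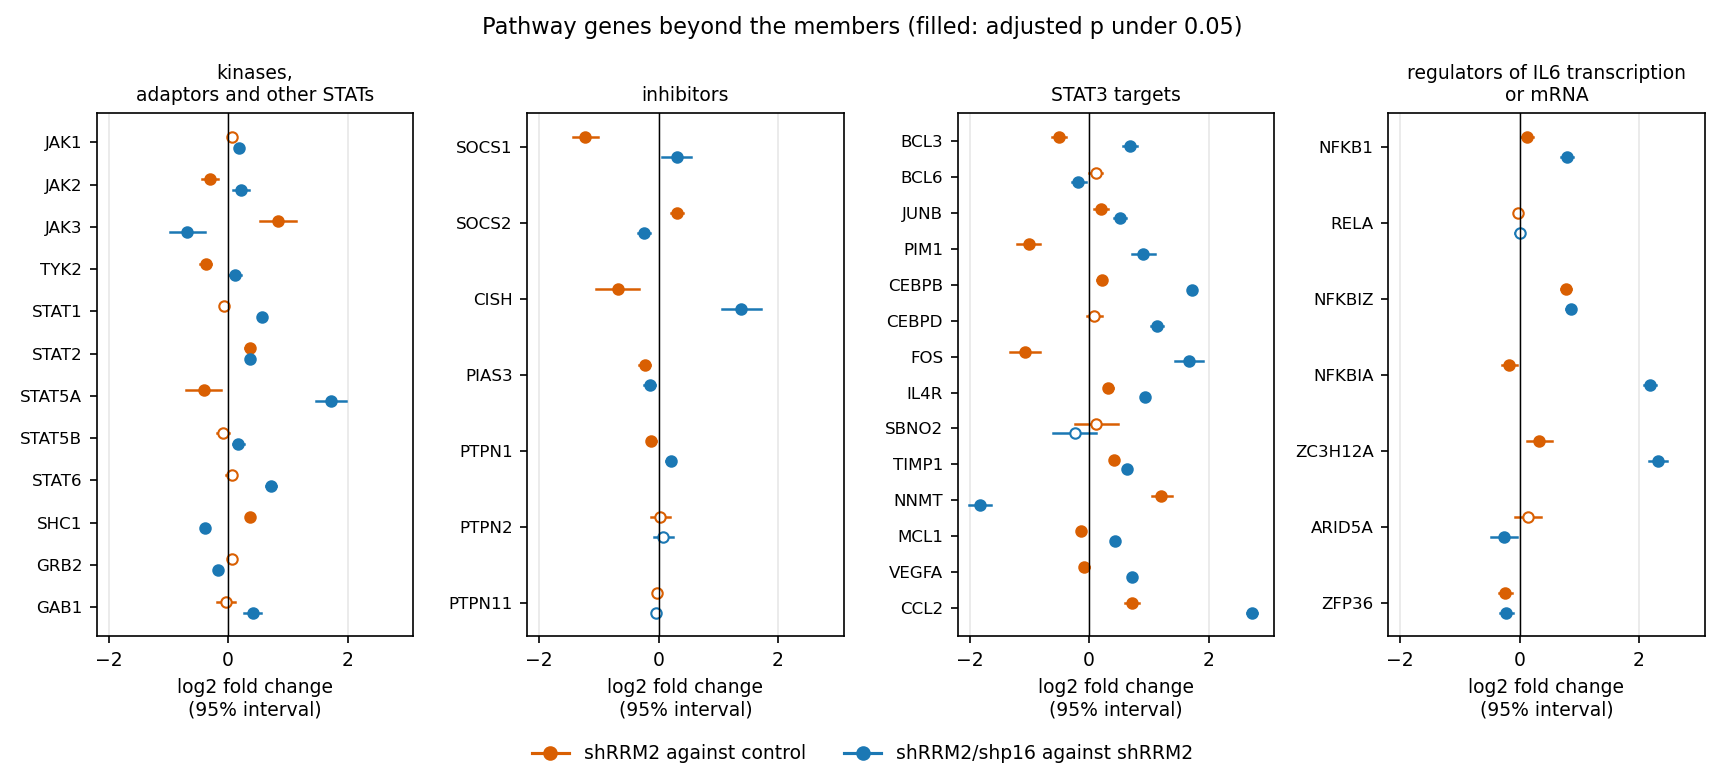
Log2 fold change (horizontal axis) with its 95% interval for 4 of the pathway lists, in shRRM2 against control (orange) and shRRM2/shp16 against shRRM2 (blue); filled points passed an edgeR adjusted p of 0.05. Among the STAT3 targets 11 of the 14 blue points lie to the right of 0 and are filled, led by CCL2 at 2.72, while SOCS1, PIM1 and FOS have orange points below -1.

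To find the genes whose level across the 9 libraries was most like that of the 3 main ligands, log2 CPM values were centred on each gene's mean and ranked by Euclidean distance among 11375 genes, as a description without a test. The 3 nearest to IL6 were C3, a complement component (distance 0.56), PTGS2, the inducible cyclooxygenase (0.86), and the cytokine gene IL24 (0.94). C3 went from 3.36 CPM in control to 12.5 and 106, and PTGS2 from 19.2 to 79.1 and 1008. IL24 was at only 0.484 CPM in control and 2.16 in shRRM2, against 14.9 in shRRM2/shp16. It reached the average level needed for this ranking only through the last group. The nearest to LIF were KLF9 (0.28), BDKRB2 (0.30), a bradykinin receptor gene, and NR4A2 (0.30), a nuclear receptor gene. Those nearest to IL11 were FAM117B (0.21), ANKRD10 (0.21) and GPCPD1 (0.26), which like IL11 had close levels in control and shRRM2, as with ANKRD10 at 53.3 and 54.0 CPM against 183 in shRRM2/shp16.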

How the data were processed

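Total RNA of 9 IMR90 libraries was depleted of ribosomal RNA and sequenced from stranded libraries, per the labels' protocols. The authors deposited raw read counts per Ensembl gene, and a table with a log2 RPKM value per library on a log2(x + 1) scale and their own log2 fold change with p-value and q-value between the hairpin groups, as its headers name them. Here x is not RPKM itself but RPKM divided by a constant, judged by the lengths in bases that it implies. It was multiplied by that constant before any use, and the limma pseudocounts were added to the rescaled values. TopHat2 2.0.9, Cufflinks 2.0.2, Cuffdiff and GRCh38 are named in the submitters' processing notes; the annotation release and strand setting of the counting are not given in the sources used here. In 8 of the 9 log2 RPKM columns at least 99.7% of genes equal the counts over a fixed length within 1%, while in that of shRRM2 replicate c only 5.66% do; RPKM levels here therefore use the counts with those lengths, and 0 columns matched no sample.

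The test was edgeR 4.0.16 under R 4.3.3: filterByExpr, which kept 99.8% of counts, TMM scaling, and 1 quasi-likelihood fit of all libraries with 3 group coefficients, two-sided, adjusted over all 16561 genes. The common biological coefficient of variation was 0.027. CPM uses TMM-scaled library sizes. Reads that name no gene were left out; ambiguous reads made up 3.74% to 6.02% of unique reads, and intervals and counts carry no correction for amplified molecules. On simulated counts for shRRM2 against control, over 16179 genes, edgeR recovered 188 of 200 changed genes with 9 false calls. Over 16561 genes, DESeq2 1.42.0 recovered 177 with 2 false calls and limma 3.58.1 recovered 190 with 14. Every simulated gene had the same coefficient of variation, 0.027, and only those 200 changed, against 10079 genes called in the data. Scaling and error control under such wide change were not tested. Alternatives were other scaling, filters, DESeq2, limma on RPKM with pseudocounts of 1 and 0.1, the 6 libraries compared, a replicate block and leaving out each library.

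The members and the pathway and marker lists were chosen with earlier results of these data known. All members are named, as are listed pathway genes that passed the test and changed by at least 1 on the log2 scale in any comparison, others where they show a role (1 listed gene is not reported here), and the 3 nearest genes of IL6, LIF and IL11 among those with an average log2 CPM of at least 2. Positions and overlaps come from GENCODE on GRCh38.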

Additional observations from a re-analysis of the deposited data

How the results depend on the processing

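Over 19 alternatives the members called numbered 6 to 7 in shRRM2 against control, and 8 in each of the other comparisons. Of the members' 570 recomputed values, 556 stayed on their side of the threshold, 9 lost a call, 5 gained one and 0 called values turned direction; the changes were in LIFR, CLCF1 and IL11 in shRRM2 against control, where IL11 ranged from -0.09 to 0.22. Of 852 values of the named pathway genes, 16 lost a call, 5 gained one and 3 turned direction: SOCS1 in shRRM2/shp16 against shRRM2 was -0.04 in each of the limma fits on all 9 RPKM columns, and the cause was not tested. CEBPD in shRRM2 against control gained a call in the limma fits and without shRRM2 replicate c (0.16, adjusted p 0.027). All limma fits but that on the 8 matching columns use the RPKM column of shRRM2 replicate c, in which only 5.66% of genes match the counts. Their values can therefore differ through that column as well as through the method. All genes called in shRRM2 against control fell from 10079 to 6702 with limma on genes of a mean RPKM of at least 1, where 12612 were tested. With the limma fits, 59.4% to 62.5% of all calls between the hairpin groups were higher, against 52.3%, and 56.2% to 59.3% of those between shRRM2/shp16 and control, against 48.1%; the median of all genes moved by at most 0.10.

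No shared deviation by replicate letter was seen, with same-letter correlations of deviations of -0.02 to 0.05 over 9 pairs. Whether the letters mark a shared culture or infection is not given in the labels, and these correlations cannot tell. With a replicate block, 7, 8 and 8 members and 10101, 10134 and 10388 genes were called in the 3 comparisons. Several named genes, such as IL6R, CISH, FOS, STAT5A and SOCS1, rest on few reads in some libraries. FOS, for one, had 58 to 64 reads per shRRM2 library. Small differences in such genes may not be detectable at this depth.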
